A study of Vulpes vulpes with 8 samples.

Results

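A set of 10 genes that mark macrophages or serve them as scavenger receptors was read in the gingiva of red foxes (Vulpes vulpes), some with hereditary hyperplastic gingivitis (HHG), in which the gum overgrows the teeth. The genes were CD68, LGMN, CD163, MRC1, CSF1R, AIF1, MARCO, MSR1, ITGAM and FCER1G, and every probe set that the platform annotation ties to 1 of these symbols alone was taken. That gave 22 of the 42924 probe sets that are not controls, and all 10 symbols are also listed among the genes of the fox RefSeq annotation. Tissue came from 5 foxes diagnosed as affected (19, 55 and 107, males; 381 and 757, females) and 3 diagnosed as unaffected (86 and 97, males; 402, female), with 1 array per fox. Diagnosis rested on early signs, that is red, raised and granular gum at the tooth margin. Age, strain and genotype were not given in the sources used here. Pieces were taken either from foxes killed in the pelting season or from anaesthetised foxes after whelping, and no fox is assigned to a season. RNA of the fox was hybridised to dog probes, so a probe set can read low because its sequence differs between the species.

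Tissue macrophages arise from embryonic precursors and from blood monocytes, and both depend on signals through the CSF1 receptor. In the gum they take up bacteria, dying cells and debris, which they break down in lysosomes, and they carry scavenger receptors that recognise sugars, modified lipoproteins or the complex of haemoglobin and haptoglobin. Several of the 10 genes are shared with other cells: ITGAM and FCER1G with neutrophils, mast cells or natural killer cells, and LGMN with many tissues. The values come from pieces of whole gum, in which fewer cells of a type and less RNA per cell cannot be told apart.

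Values are MAS5 signals, a linear intensity scaled to a common level on each array, and differences are affected minus unaffected on the scale log2(signal + 16). Of the 22 probe sets 18, for 8 of the 10 genes, had a mean signal above the filter of 18.2 and were tested with limma. MARCO and MSR1 and 1 probe set of CD163 lay below it. Background on each array was read from 42 bacterial control probe sets, as their 95th percentile, and was 7.42 to 16.6 over the 8 arrays. The 18 tested probe sets were above background in all 8 foxes. The number of arrays limits the precision, and the median standard error of a difference over all tested probe sets was 0.23.

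The comparison of affected with unaffected gum asked which macrophage genes differ with the disease. CD68 and LGMN, which act in lysosomes, had higher means in affected foxes in each of their 7 probe sets. CD163 and ITGAM also had higher means, with overlap between the groups. For the brightest probe set of CSF1R, AIF1, MRC1 and FCER1G the difference between the groups was smaller than its standard error. None of the 18 tested probe sets passed limma at an adjusted p under 0.05 over 25754 probe sets (adjusted p = 0.9999 for each), and 0% of all probe sets did. At an unadjusted p under 0.05 there were 3 of 18, all higher and all from CD68 and LGMN, where the share of all probe sets called higher at that level was 1.16%. Probe sets of 1 gene read the same transcript and are not independent. The members were chosen with earlier results of these data known, so the shares given here do not test them as a set. A higher mean in affected foxes was found in 16 of the 18, against 43.5% of all tested probe sets, and in 19 of all 22, against 47.5% of all probe sets.

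**Figure D1:**
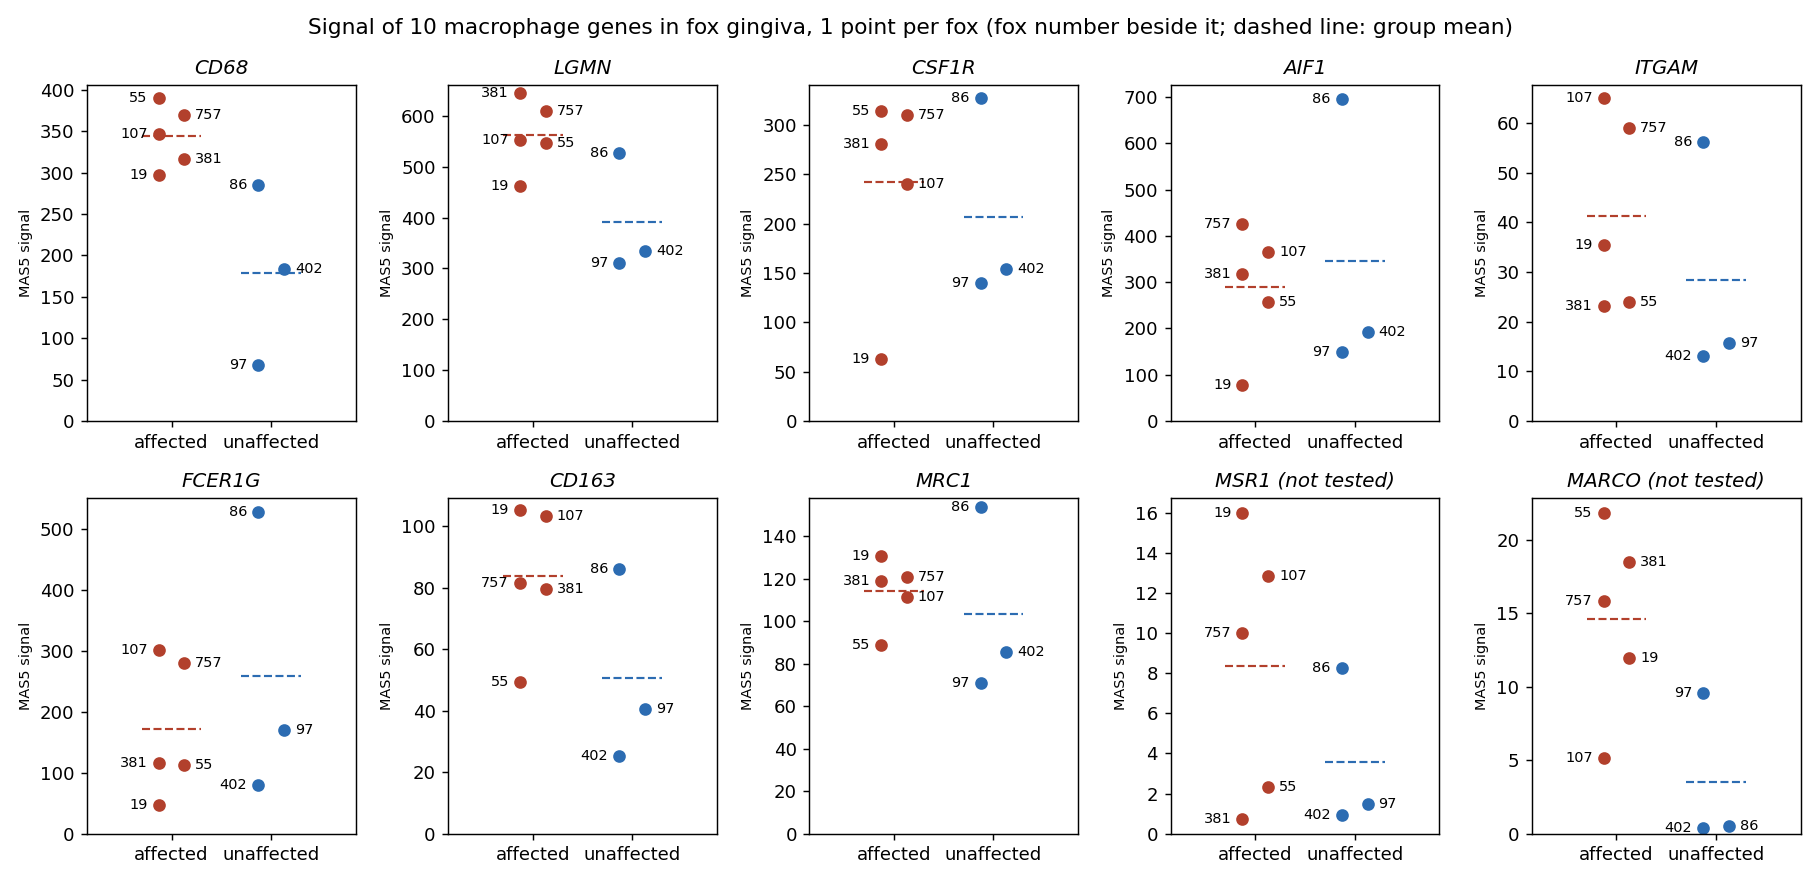
MAS5 signal (vertical axes, linear and from 0) of the probe set with the highest mean for each of the 10 genes, with 5 affected foxes on the left and 3 unaffected foxes on the right of each panel; each point is 1 fox with its number, and the dashed line is the group mean. CD68 is the panel in which the groups do not overlap, while affected fox 19 is the lowest point of CSF1R, AIF1 and FCER1G and unaffected fox 86 the highest.

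CD68 is a glycoprotein of the lysosomal membrane that is used as a general macrophage marker. Its brighter probe set read 297, 389.8, 347, 317 and 370.1 in affected foxes 19, 55, 107, 381 and 757, against 284, 67.6 and 184 in unaffected foxes 86, 97 and 402. Every affected fox was above every unaffected fox, but fox 86 came close and fox 97 lay far below the rest. The means were 344 ± 38.0 in the 5 affected foxes and 179 ± 109 in the 3 unaffected foxes (mean ± SD), a difference of 1.07 ± 0.35 (SE). The two-sided exact permutation p over the 56 splits of the foxes was 0.0179, the smallest that this design allows, and 1 after adjustment over all probe sets. Without unaffected fox 97 the difference was 0.55, and without unaffected fox 86 it was 1.47. The second CD68 probe set read 179, 222, 229.9, 219 and 231 in affected foxes, in the same order, against 209.5, 139 and 168 in unaffected foxes. There the groups overlapped through affected fox 19 and unaffected fox 86, and the difference was 0.31 ± 0.18 (SE). Both probe sets ordered foxes 97 and 402 lowest.

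LGMN encodes legumain, an asparaginyl endopeptidase of lysosomes that processes antigens and activates cathepsins. Its brightest probe set read 462, 546, 552, 645 and 610.5 in affected foxes, against 528, 311 and 335 in unaffected foxes. Affected fox 19 was the only affected fox below unaffected fox 86, and foxes 97 and 402 were again lowest. The difference was 0.54 ± 0.21 (SE), with a two-sided exact permutation p of 0.0357. A further LGMN probe set separated the groups fully, at 446, 539, 381, 461 and 407 in affected foxes against 327, 302 and 288 in unaffected foxes, with a difference of 0.52 ± 0.17 (SE). The 3 other LGMN probe sets differed by 0.42, 0.32 and 0.20, and their groups overlapped. These 5 probe sets ordered the foxes differently among themselves, with Pearson correlations over the 8 foxes of 0.33 to 0.93 for pairs of them. In all, 2 of the 18 tested probe sets had no overlap between the groups and were higher, against 0.916% of all tested probe sets. The choice of members with earlier results known limits that comparison too.

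**Figure D2:**
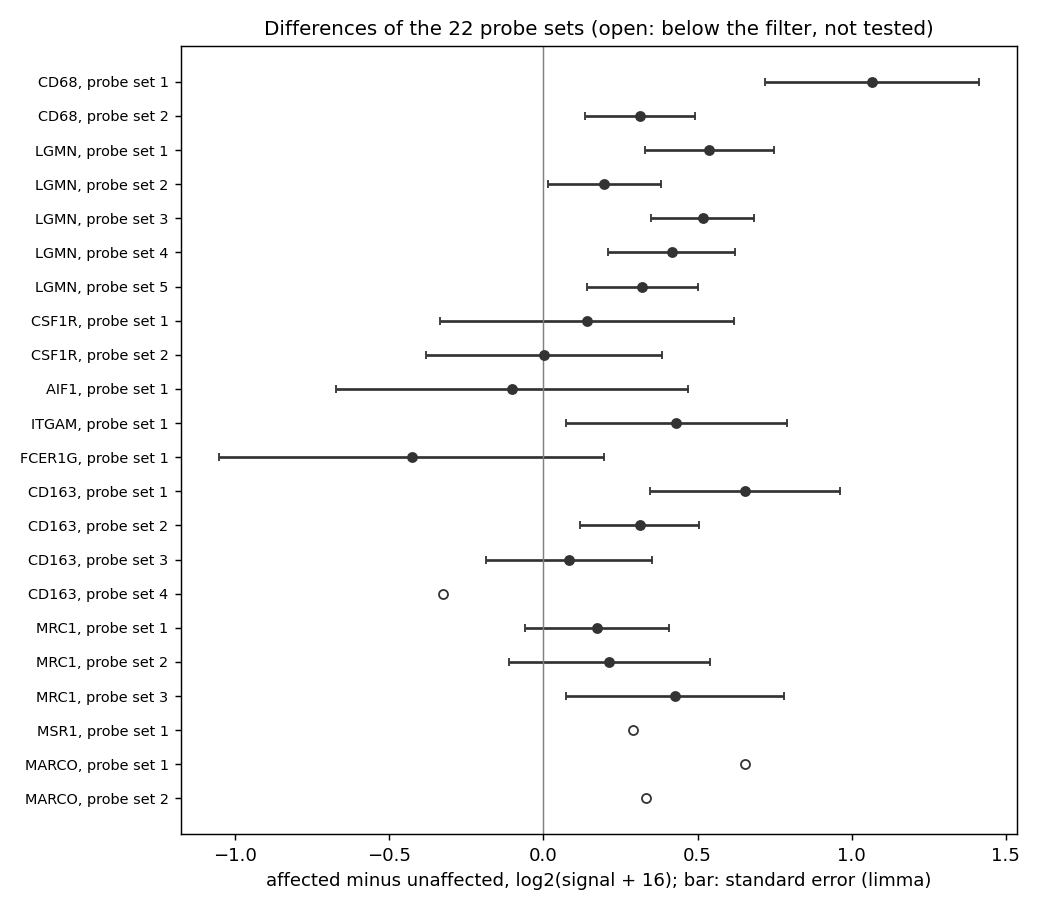
Difference between affected and unaffected foxes, on the scale log2(signal + 16), for each of the 22 probe sets; probe sets of a gene are numbered from the highest mean, bars are limma's standard errors, and open points were below the filter and not tested. The 7 points of CD68 and LGMN lie between 0.20 and 1.07, and the bars of CSF1R, AIF1 and FCER1G span 0.

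The scavenger receptors came next. CD163 takes up haemoglobin bound to haptoglobin and marks resident and repair-type macrophages. Its brightest probe set read 105, 49.3, 104, 79.6 and 81.4 in affected foxes 19, 55, 107, 381 and 757, against 86.0, 40.7 and 25.2 in unaffected foxes 86, 97 and 402. The highest readings were in affected foxes 19 and 107, but fox 55 read close to unaffected fox 97. The difference was 0.65 ± 0.31 (SE, exact permutation p = 0.125), and it was 1.01 without unaffected fox 86 and 0.36 without unaffected fox 402. The other tested CD163 probe sets differed by 0.31 and 0.08, and a probe set that was above background only in unaffected fox 97 differed by -0.32 untested.

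MRC1, the mannose receptor CD206, binds sugars with terminal mannose on microbes and on host glycoproteins. It read 131, 88.8, 112, 119 and 121 in affected foxes against 154, 70.9 and 85.5 in unaffected foxes, so that all affected foxes lay within the range of the unaffected foxes. The difference was 0.18 ± 0.23 (SE), and -0.02 without unaffected fox 97. Its other probe sets differed by 0.21 and 0.43.

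MSR1 and MARCO are class A scavenger receptors that bind modified lipoproteins and bacterial surfaces, and both were dim. MSR1 read 15.996, 2.30, 12.8, 0.717 and 9.99 in affected foxes and 8.26, 1.46 and 0.953 in unaffected foxes, and only affected fox 19 was above background. The brighter MARCO probe set read 11.9, 21.8, 5.12, 18.5 and 15.8 in affected foxes and 0.555, 9.59 and 0.411 in unaffected foxes. It was above background in 4 of 5 affected foxes and in 1 of 3 unaffected foxes, with affected fox 107 as the affected fox below background. The second MARCO probe set was above background in 1 of 5 affected and 0 of 3 unaffected foxes. No fold is given for signals this near background.

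CSF1R, the receptor for CSF1 and IL-34, and AIF1 (IBA1), an actin-binding protein of macrophages and microglia, are markers of the lineage. CSF1R read 62.8, 315, 241, 281 and 309.8 in affected foxes against 327, 139.8 and 154 in unaffected foxes. Affected fox 19 read lowest of all 8 and unaffected fox 86 highest, and the other 4 affected foxes lay above foxes 97 and 402. The difference was 0.14 ± 0.48 (SE), 0.53 without affected fox 19 and 0.50 without unaffected fox 86, and -0.07 and -0.01 without unaffected foxes 97 and 402. The second CSF1R probe set differed by 0.00 ± 0.38 (SE). AIF1 read 78.5, 258, 366, 317 and 427 in affected foxes against 696, 149 and 193 in unaffected foxes. Its lowest and highest foxes were again 19 and 86. The difference was -0.10 ± 0.57 (SE), 0.28 without affected fox 19 and 0.54 without unaffected fox 86.

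ITGAM (CD11b) pairs with ITGB2 to form complement receptor 3, an adhesion and phagocytic receptor of macrophages and neutrophils. It read 35.4, 24.0, 65.1, 23.1 and 59.0 in affected foxes against 56.3, 15.8 and 12.99 in unaffected foxes. All affected foxes lay above unaffected foxes 97 and 402, and 3 of them lay below fox 86. The difference was 0.43 ± 0.36 (SE), and it was 0.85 without unaffected fox 86 and 0.19 without unaffected fox 402. With an offset of 1 or 64 in place of 16 it was 0.70 or 0.20. FCER1G, the gamma chain that passes signals from Fc receptors through an ITAM motif, read 47.6, 113, 301, 116 and 280.5 in affected foxes against 527, 170.5 and 80.6 in unaffected foxes. It was the member with the lowest difference, -0.43 ± 0.62 (SE), which was 0.24 without unaffected fox 86 and -1.001 without unaffected fox 402.

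**Figure D3:**
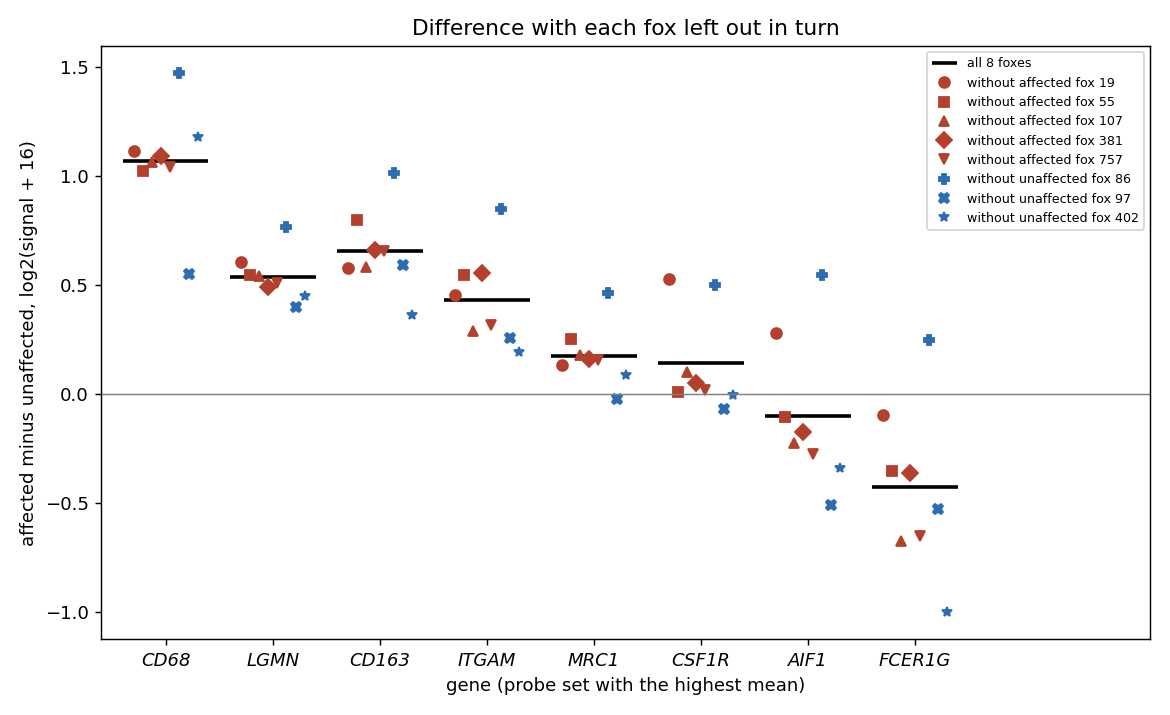
Difference between affected and unaffected foxes, on the scale log2(signal + 16), for the brightest probe set of the 8 tested genes, with all foxes (black line) and without each fox in turn (symbols, red for an affected and blue for an unaffected fox left out). CD68, LGMN, CD163 and ITGAM stayed above 0 in each case (lowest values 0.55, 0.40, 0.36 and 0.19), while MRC1, CSF1R, AIF1 and FCER1G crossed 0.

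The members were then set against genes common to white blood cells, namely PTPRC (CD45), CD52, CORO1A and LCP1. The mean log2 value of these 4 genes was 7.94 ± 0.70 in the 5 affected foxes and 7.94 ± 0.97 in the 3 unaffected foxes (mean ± SD), with an exact permutation p of 0.982. Within the groups it ran from 6.72 in fox 19 to 8.35 in fox 107 among affected foxes, and from 7.14 in fox 97 to 9.01 in fox 86 among unaffected foxes. AIF1 followed this score over the 8 foxes, with Pearson's r = 0.967 (exact permutation p = 0.000223, 0.00179 adjusted over the 8 members tested) and Spearman's rho = 0.952 (exact permutation p = 0.00114, adjusted 0.00913), and r = 0.907 without the 2 foxes farthest from the median score. CSF1R had r = 0.919 (exact permutation p = 0.000744, adjusted 0.00298) and rho = 0.833 (exact permutation p = 0.0154, adjusted 0.0410), with r = 0.745 without those 2 foxes. FCER1G had r = 0.795 (exact permutation p = 0.0183, adjusted 0.0488) and rho = 0.833, with r = 0.887 without them. Its levels also differed between the sets of foxes by actin signal, as given below. The remaining 5 did not pass, with r = 0.193 for CD163, 0.408 for MRC1, 0.507 for CD68, 0.545 for ITGAM and 0.579 for LGMN. Without the same 2 foxes r was 0.641 for CD163, 0.771 for MRC1, 0.445 for CD68, 0.746 for ITGAM and 0.440 for LGMN. MRC1 and ITGAM were then not below CSF1R, so the division of members by this score depends on those 2 foxes. Whether those coefficients differ from that of AIF1 was not tested. With the score as a covariate, a fit added after seeing the data, the CD68 difference was 1.07 ± 0.26 (SE). That of LGMN was 0.54 ± 0.17 (SE), and each had an adjusted p of 0.984 in limma. The group means of the score were both 7.94, so this fit could hardly change a group difference. Whether leukocyte content accounts for the CD68 and LGMN differences was not tested.

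**Figure D4:**
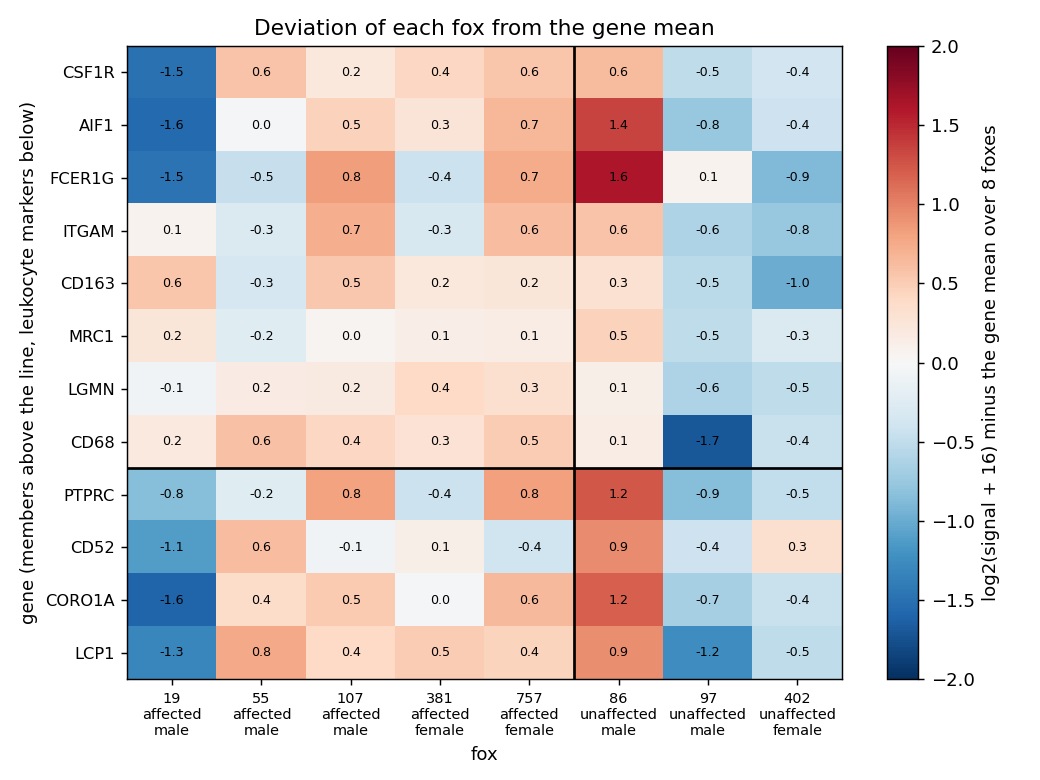
Deviation of each fox from the gene mean over the 8 foxes on the scale log2(signal + 16), for the 8 tested members (upper rows) and 4 leukocyte markers (lower rows), with affected foxes left and unaffected foxes right of the vertical line. Fox 19 is low in CSF1R, AIF1, FCER1G and all 4 leukocyte markers but not in CD163, MRC1 or CD68, and fox 86 is above the mean in every row. Each row is the brightest probe set of its gene. In the second CD68 probe set, not shown, fox 19 read 179 and the other affected foxes 219 to 231.

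Among the members themselves 28 pairs were compared over the 8 foxes. CSF1R and AIF1 varied together, with r = 0.908 (exact permutation p = 0.00149, adjusted 0.0417) and rho = 0.833 (exact permutation p = 0.0154, adjusted 0.195), and r = 0.691 without the 2 foxes farthest from the CSF1R median. That pair was the only one with an adjusted p under 0.05 for r, and for rho there was none. With fox 19, 381 or 757 of the affected group left out its adjusted p was 0.0850, 0.0528 and 0.125, and with fox 86, 97 or 402 of the unaffected group left out 0.1, 0.0944 and 0.139. Without affected fox 19 the pair that passed was MRC1 and AIF1, with r = 0.974 (exact permutation p = 0.000595, adjusted 0.0167) against r = 0.446 (exact permutation p = 0.266, adjusted 0.392) with all foxes. CD68 and LGMN had r = 0.872 (exact permutation p = 0.00399, adjusted 0.0525). It was 0.862 to 0.914 with any 1 fox left out, but 0.395 without the 2 foxes farthest from the CD68 median. Whether the relation holds among the remaining foxes was not tested. CD163 and MRC1 had r = 0.804 (exact permutation p = 0.0153, adjusted 0.0942) and CD163 and CSF1R 0.0554 (exact permutation p = 0.886, adjusted 0.886). The foxes fall into sets of 4 by actin signal, as given below, which are too few for a correlation within each.

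Genes whose levels over the 8 foxes were most like those of a member were picked from 10520 named genes by Pearson's r, which describes these arrays and carries no p. For CSF1R these were SPIC, a transcription factor of iron-recycling macrophages (r = 0.989), and NTRK2, a neurotrophin receptor (0.979). For AIF1 they were TGFBR2, a TGF-beta receptor (0.984), and DLA-DQB1, a class II antigen-presenting chain (0.983). FCER1G was most like FKBP11, a chaperone of secretory cells (0.989), and CMTM2 (0.986). ITGAM was most like MS4A7, a membrane protein of macrophages (0.967), and TSKU (0.953). CD68 was most like SIGLEC11, a sialic-acid-binding receptor known from human macrophages (0.967), and GTF2B, a general transcription factor (0.943), and without the 2 foxes farthest from its median these were 0.927 and 0.389. LGMN was most like EDEM2 (0.949) and FFAR2, a receptor for short-chain fatty acids (0.939), CD163 like SSR3 (0.968) and C26H12orf65 (0.935), and MRC1 like ATP6V1B2, a subunit of the proton pump that acidifies lysosomes (0.964), and RGCC (0.943).

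Genes that work with the members, or share their cells or processes, were read from 7 lists, chosen with earlier results of these data known. Across all 10848 tested genes 45.3% had a higher mean in affected foxes, with a median difference of -0.03, and 1.25% were higher at an unadjusted p under 0.05. No list gene passed at an adjusted p under 0.05 in limma. The list of ITAM adaptors and Fc receptors held TYROBP, FCGR1A, SYK, LYN, TREM1, TREM2, SIRPA, PTPN6 and CLEC7A as tested genes. Of these, 9 of 9 had higher means (median 0.22), and 0 of 9 had an unadjusted p under 0.05. FCGR1A, the high-affinity IgG receptor, read 471 ± 283 in the 5 affected foxes and 297 ± 318 in the 3 unaffected foxes (mean ± SD), a difference of 0.93 ± 0.61 (SE). TREM1, an amplifier of inflammatory signals on myeloid cells, differed by 0.58 ± 0.31 (SE) and was above background in 4 of 5 affected and 2 of 3 unaffected foxes. Over those 9 genes the mean log2 value ran from 6.46 to 7.77 in affected foxes and from 6.34 to 7.66 in unaffected foxes, so the groups overlapped throughout.

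Lysosomal proteins and partners of LGMN had higher means in 11 of 13 tested genes (median 0.18). CTSD, an aspartic protease of lysosomes, read 2669 ± 382 in the 5 affected foxes and 2013 ± 521 in the 3 unaffected foxes (mean ± SD). The CTSD difference was 0.42 ± 0.21 (SE), and 0.08 in its other probe set. CSTB, an inhibitor of cathepsins, differed by 0.30 ± 0.21 (SE), while GPNMB and LAMP2 differed by -0.28 and -0.01. In the list of haemoglobin and iron handling 5 of 7 tested genes had higher means (median 0.06). That list also held CSNK2B, a casein kinase subunit and not an iron handling gene, which differed by -0.06. SLC11A1 (NRAMP1), which pumps metal ions out of the phagosome of macrophages, read 93.3, 61.7, 92.0, 67.1 and 82.6 in affected foxes 19, 55, 107, 381 and 757 against 68.5, 29.6 and 34.0 in unaffected foxes 86, 97 and 402. Foxes 19, 107 and 757 read above unaffected fox 86, and all 5 affected foxes read above unaffected foxes 97 and 402. Its difference was 0.71 ± 0.24 (SE, limma unadjusted p = 0.0130), the only one of that list at an unadjusted p under 0.05, and its 3 probe sets ranged from -0.05 to 0.71. BLVRB, a biliverdin reductase, differed by 0.34, and SLC40A1, the iron exporter ferroportin, by -0.11.

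Other scavenger receptors had higher means in 6 of 10 tested genes (median 0.15). CD36, a receptor for oxidised lipoproteins and fatty acids, differed by 0.67 ± 0.48 (SE) and COLEC12 by 0.48 ± 0.25, while SCARA3 and SCARB2 differed by -0.39 and -0.23. The other COLEC12 probe set differed by -0.11, and the one given was above background in 5 of 5 affected and 2 of 3 unaffected foxes. Among partners and ligands of ITGAM 6 of 9 had higher means (median 0.04). ICAM1 is the endothelial and epithelial ligand of leukocyte integrins. It read 1345 ± 1034 in the 5 affected foxes and 614 ± 159 in the 3 unaffected foxes (mean ± SD). The difference was 0.82 ± 0.54 (SE), and 0.41 in its other probe set. Affected fox 55 read 3080, while affected fox 19, at 358, read below every unaffected fox. ITGAX differed by 0.14, and THY1 and JAM3 each by -0.17. The CSF1R ligand IL34 differed by -0.25 ± 0.22 (SE), in a list with 5 of 7 higher (median 0.09). The lineage transcription factors SPI1, KLF4 and IRF8 differed by 0.29, 0.36 and -0.34, and KLF4 by 0.02 in its other probe set. IRF8 was above background in 3 of 5 affected and 3 of 3 unaffected foxes. In the list of further macrophage and monocyte markers 14 of 20 had higher means (median 0.15), with MS4A7 at 0.73, ADGRE1 at 0.32, MPEG1 at -0.41 and AXL at -0.27. AXL was above background in 3 of 5 affected and 3 of 3 unaffected foxes, and its other probe set differed by 0.09. In that list, too, the groups overlapped, with mean log2 values of 6.61 to 7.83 in affected foxes and 6.79 to 8.09 in unaffected foxes.

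Markers of other cells that carry ITGAM or FCER1G were read beside them. Of 11 neutrophil markers 9 were in the annotation and 7 were tested. Against 45.3% of all tested genes, 6 of these 7 markers had higher means in affected foxes. Their summed signal was 26461 to 32376 in the affected and 26361 to 30024 in the unaffected group, most of it from S100A8 and S100A9, which epithelium also makes, and ELANE was not above background in any fox. MMP9, a matrix protease of neutrophils and macrophages, and LTF, the lactoferrin of neutrophil granules, were the list's 2 genes at an unadjusted p under 0.05 (adjusted p = 0.9999 in limma), and were singled out after their values were seen. MMP9 read 71.0, 181.7, 55.3, 60.2 and 78.4 in affected foxes 19, 55, 107, 381 and 757 against 30.7, 15.2 and 33.7 in unaffected foxes 86, 97 and 402, so the groups did not overlap, as for CD68. LTF differed by 1.28 ± 0.51 (SE), with affected fox 19 below unaffected foxes 86 and 97. Of 9 mast cell markers 5 were tested, with 2 higher, and their summed signal was 139 to 307 against 204 to 258. FCER1A, which pairs with FCER1G on mast cells, differed by -0.65 ± 0.35 (SE), and KIT by -0.42 ± 0.29 (SE). The mast cell protease CMA1, likewise singled out, read 31.4, 14.6, 37.7, 40.9 and 44.8 in affected foxes, in the same order, against 10.5, 14.2 and 4.24 in unaffected foxes. It was above background in 4 of 5 affected foxes and in 1 of 3 unaffected foxes, and no fold is given. The part of neutrophils and mast cells in the CD68, ITGAM and FCER1G values was not tested.

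The arrays also differed in the integrity control. The probe set at the 5' end of actin had signals of 7831 to 8868 in affected foxes 107 and 757 and unaffected foxes 86 and 97, and 1354 to 2336 in affected foxes 19, 55 and 381 and unaffected fox 402. Within foxes of high 5' actin the differences were 1.24 for CD68, 0.50 for LGMN, 0.50 for CD163, 0.70 for ITGAM, 0.12 for MRC1, 0.32 for CSF1R, 0.26 for AIF1 and -0.05 for FCER1G. Within foxes of low 5' actin, where 1 fox was unaffected, they were 0.80, 0.68, 1.15, 0.57, 0.33, 0.22, -0.03 and 0.09 in the same order. For these brightest probe sets, means were higher in affected foxes in both sets for CD68, LGMN, CD163, ITGAM, MRC1 and CSF1R. For AIF1 and FCER1G they were higher in 1 of the sets. The dimmest tested CD163 probe set differed by -0.27 in the high set and by 0.56 in the low set. When the actin ratio, 5' over 3' on the log2 scale, was a covariate, ITGAM differed by 0.77 ± 0.28 (SE, limma unadjusted p = 0.0254), CD163 by 0.85 ± 0.31 (SE, limma unadjusted p = 0.0221), CSF1R by 0.29, AIF1 by 0.23 and FCER1G by 0.19. Each of these had an adjusted p of 0.9997 in limma. Over the 8 foxes FCER1G had r = 0.775 with the actin ratio (exact permutation p = 0.0291, adjusted 0.233 over the 8 members) and rho = 0.619. Its readings were 170.5 to 527 in the high set and 47.6 to 116 in the low set. How far the actin sets enter its relation to the leukocyte score was not tested.

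Males and females were compared next, with a term for disease. Male minus female differences of the 18 tested probe sets ran from -0.31 to 0.36, with 8 of 18 below 0 against 50.2% of all tested probe sets. Of the 18, 0 passed limma at an adjusted p under 0.05 and 0 had an unadjusted p under 0.05, which 2.29% of all tested probe sets had. Limma called 0.00388% of all probe sets, which is 1 probe set. The disease difference was then taken within each sex and the male value set against the female one. It was lower in males in 14 of 18 probe sets, against 54.1% of all tested probe sets. FCER1G differed by -1.21 in males and by 1.04 in females, a sex with 1 unaffected fox, an interaction of -2.25 ± 1.21 (SE). AIF1 differed by -0.67 in males and by 0.88 in females, an interaction of -1.55 ± 1.21 (SE). For CD68 the difference was 1.18 within males and 0.84 within females. No interaction passed limma (adjusted p = 0.99995 for each of the 18, with 0% of all probe sets called), and 0 of 18 had an unadjusted p under 0.05, against 2.47% of all tested probe sets. Both foxes at the ends of the leukocyte score, 19 and 86, are males.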

How the data were processed

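Gingiva of 8 foxes was hybridised to Affymetrix Canine 2 arrays, 1 array per fox. The deposited values are linear intensity, the MAS5 signal per the submitters' processing notes. The sources used here give no version and no detection calls. The 2% trimmed mean was 150.0 on every array. Of 42924 probe sets other than 111 controls, 29254 had 1 gene symbol in the annotation, 439 several and 13231 none. Values were taken as log2(signal + 16), and the 40% with the lowest mean were left out, which left 25754. Groups were compared with limma 3.58.1 in R 4.3.3 (lmFit, eBayes, Benjamini-Hochberg over all tested probe sets), with group as the only term; sex and its interaction with disease were fitted separately. Single values were also compared by exact permutation over 56 splits. The fit was tested on simulated arrays of 25754 probe sets, where 17.5%, 85.3% and 97.2% of changes of 1, 2 and 3 on the log2 scale were recovered. 

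A gene was read from its brightest probe set (highest mean over the foxes). Some probe sets can bind transcripts of more than 1 gene. Named were all members, from each partner list up to 2 genes per direction with the smallest p, from each marker list the 2 with the highest mean, and the 2 genes most like each member. ELANE, MMP9, LTF, CMA1 and FLT4 were named after their values were seen. Members and lists were chosen with earlier results of these data known. Of 176 listed genes 142 were in the annotation and 120 were tested.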

Additional observations from a re-analysis of the deposited data

Results flagged for a closer look

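Affected fox 19 stood apart from the other 4 affected foxes in 2 probe sets, where its gap to the nearest of them was a large part of the group's whole range. In the brighter CSF1R probe set it read 62.8, the others 241 to 315, and the gap was 0.823 of the range on the log2 scale. In the dimmer CD68 probe set it read 179, the others 219 to 231, and the gap was 0.783 of the range. Both exceed the critical value of 0.71 for 5 samples. Of 22 probe sets examined about 1 in 20 would pass by chance, and probe sets of 1 fox are not independent. The unaffected group of 3 was too small for this rule.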

How the results depend on the processing

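The count of probe sets called between affected and unaffected foxes was 0 under all 22 alternatives run, which covered the offset, quantile normalization, the filter, sex, males alone, array weights, an intensity trend, the actin ratio, a threshold of 0.1, leaving out each fox, and 3 added after seeing the data (the leukocyte score and the sets of high and low actin). CD68, LGMN, CD163 and ITGAM were higher in affected foxes under all 23 alternatives run for each. Some of these could not turn the sign, because changing the filter, the intensity trend or the test leaves the difference itself as it was. The leukocyte score could hardly change it either. The alternatives read the brightest probe set, apart from a mean over the tested probe sets of a gene. The dimmest tested CD163 probe set turned to -0.27 within foxes of high 5' actin and -0.001 within males. It was -0.10 without unaffected fox 402 and -0.04 without affected fox 19. The sign turned for CSF1R within males (-0.30), for AIF1 with array weights (0.35), with the actin ratio as a covariate (0.23) and within foxes of high 5' actin (0.26), and for FCER1G with array weights (0.0880), with the actin ratio (0.19) and within foxes of low 5' actin (0.0876). With 1 fox left out the differences ran from 0.55 to 1.47 for CD68, 0.40 to 0.77 for LGMN, 0.36 to 1.01 for CD163, 0.19 to 0.85 for ITGAM, -0.0235 to 0.46 for MRC1, -0.0703 to 0.53 for CSF1R, -0.51 to 0.54 for AIF1 and -1.001 to 0.24 for FCER1G, and the number of the 10 members with a higher mean, 8 with all foxes, from 6 to 10. The 10 members include MSR1 and MARCO, which were near background and not tested. Among the 8 tested members 6 had a higher mean with all foxes, against 45.3% of all tested genes. The count of male against female calls was 1, and 1 to 2 with a fox left out (2 without affected fox 55). The count of correlated member pairs, 1 with all foxes, was 3 with an offset of 64 and 0 to 1 with a fox left out, and without affected fox 19 the pair was MRC1 and AIF1 in place of CSF1R and AIF1. With an offset of 64 CD163 differed by 0.39 and ITGAM by 0.20, and with the actin ratio as a covariate by 0.85 and 0.77. The causes were not tested. No paired analysis was possible because the groups share no replicate number.

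With 5 and 3 arrays, changes near 1 on the log2 scale were mostly missed in simulated data, so a probe set that did not pass is not shown to be equal in both groups. Signals of MSR1 and MARCO near background allow no statement on their difference.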

Other observations

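Other cell types of the gum varied widely between foxes of 1 group. JCHAIN, the joining chain of secreted antibodies and a marker of plasma cells, read 1170, 4791, 9154, 4485 and 8941 in affected foxes 19, 55, 107, 381 and 757, against 11976, 768 and 1911 in unaffected foxes 86, 97 and 402. Foxes 19 and 97 were low and fox 86 high, as they were for AIF1. CD2 and CD3D, of T cells, read 39.0 and 37.7 in affected fox 19, and the highest readings, 430.4 and 461, were in unaffected fox 86. Of the 7 tested T and natural killer cell markers 3 had higher means in affected foxes, and of 3 tested B and plasma cell markers 2. Over all tested genes the share with a higher mean was 45.3%. MS4A1, of B cells, differed by -0.33.

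Structural cell markers overlapped between the groups as well. Over all tested genes, 45.3% had higher means in affected foxes. The summed signal of the 4 tested epithelial markers was 9608 to 13140 in affected foxes and 7827 to 15561 in unaffected foxes, and 4 of 4 had lower means in affected foxes, with KRT13 at -0.15 and DSG3 at -0.24. The 7 fibroblast markers summed to 10005 to 27234 in the affected and 8128 to 30440 in the unaffected group, with COL1A1 at 0.27 and COL1A2 at 0.44. Of 5 tested endothelial markers 2 had higher means, with VWF at 0.28 and PECAM1 at -0.14. The other higher one was FLT4, a receptor of lymphatic endothelium named after its values were seen, at an unadjusted p of 0.00443 in limma (adjusted p = 0.9999). It read 50.8, 35.5, 59.9, 49.9 and 50.4 in affected foxes 19, 55, 107, 381 and 757, against 12.2, 8.71 and 37.9 in unaffected foxes 86, 97 and 402, and was above background in 1 of the 3 unaffected foxes. The mean log2 value of the endothelial list was lowest in affected fox 19 (6.93) and highest in unaffected fox 86 (7.44), and that of the fibroblast list was also highest in fox 86 (10.9). Of 3 tested dendritic cell markers 1 had a higher mean, with FLT3 at -0.29 and CCR7 at -0.07.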
